A study of Mus musculus with 20 samples.

Results

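Potassium channel subunit genes were followed in ribosome-associated mRNA of mouse hippocampal granule cells over the first postnatal weeks. The set holds the 92 gene symbols, of 32245 in the count table, that begin with Kcn and continue with a family letter code and a number. It covers the pore-forming subunits of voltage-gated, calcium- and sodium-activated, inward rectifier and tandem-pore (K2P) channels and the auxiliary subunits of the same nomenclature. A mean of at least 1 CPM (counts scaled to a common library total) over all libraries was reached by 67 of the 92.

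All 20 libraries came from hippocampi of mice of 1 genotype, Rbp4-Cre:RiboTag, with no treatment named in the labels and no genotype to set beside it. In these mice Cre recombination places an HA epitope on the ribosomal protein RPL22, and ribosomes of cells that have expressed Cre are pulled from the tissue lysate with anti-HA beads. Postnatal day (P) 5 is represented by 5 libraries, and each later day sampled (P7, P10, P15, P21, P28) by 3. The question was how the subunit genes change over these 6 ages. The regulatory region of Rbp4 decides which cells carry the tag, and whole hippocampi were lysed, so the label granule cells rests on the driver. The libraries of an age are not said to come from separate animals, and p-values therefore measure only the spread between these samples.

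Potassium channels let potassium leave the cell, or hold the membrane near its resting potential, and so oppose depolarization. Voltage-gated (Kv) subunits assemble as tetramers that shape spike threshold, repolarization and firing rate. Inward rectifier and K2P channels carry current near rest, and G-protein-gated inward rectifiers (GIRK) open when receptors such as the GABA-B receptor are activated. Auxiliary subunits bind the pore proteins and alter their gating or surface level.

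Total counts were 15.9 to 24.9 M per library, at which 3 counts equal 0.12 to 0.189 CPM, a floor that covers counting error only. Per the labels the libraries were made in 3 batches, called A, B and C here. The P10 and P15 libraries and 3 from P5 formed batch A, the P7 libraries and the other 2 from P5 batch B, and the P21 and P28 libraries batch C. Wherever P21 or P28 is set against a younger age, age and batch C cannot be told apart. The granule cell marker Prox1 stood at 499 to 533 CPM at P28 and at 515 to 579 CPM at P5. The sum of 12 granule cell markers, Prox1 among them, was 3070 to 3160 CPM at P28, against 1840 to 1960 CPM at P5. Of these 12, 9 were higher and 1 lower at P28, and their part in the levels of the channel genes was not tested. Markers of glia, interneurons and pyramidal cells were present in every age as well. In such bulk libraries fewer cells of a type and less RNA per cell cannot be told apart.

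Channel subunit mRNA took a growing part of the libraries. The 92 genes together held 0.557 to 0.572% of all counts in the P28 libraries, against 0.362 to 0.376% in the P5 libraries. Summed over all members and divided by exon length, their level was 648 ± 20.5 CPM per kilobase (kb) at P5 (SD, n = 5), then 723 ± 50.4 (P7), 999 ± 26.9 (P10), 1042 ± 19.8 (P15), 1083 ± 22.6 (P21) and 1052 ± 3.41 (P28; n = 3 each). The main step of this sum thus lay between P7 and P10, and from P15 on the means lay between 1042 and 1083. The step from P7 to P10 is also one from batch B to batch A, and these sums are not adjusted for batch.

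The members spanned a wide range of levels. A mean of at least 100 CPM was held by 20 members, 32 lay between 10 and 100 CPM and 15 between 1 and 10 CPM. On the scale of CPM per kb of exon, averaged over all libraries, the highest included Kcnab2 (90.5), the beta subunit of Kv1 channels, Kcnj4 (84.0), a strong inward rectifier, Kcnk1 (69.9), a K2P channel, Kcnip2 (62.8), an auxiliary subunit of Kv4 channels, and Kcnj3 (34.7), a GIRK subunit. Just inside the floor of 1 CPM were Kcnh6 (1.17), Kcnk6 (1.29) and Kcnmb2 (1.29), and just outside it Kcne2 (0.872) and Kcng4 (0.786).

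Of the 25 members below the floor, 8 had enough counts in at least 1 age to be tested: Kcne2, Kcng3, Kcng4, Kcnh8, Kcnj5, Kcnj8, Kcnj13 and Kcnj14. The other 17 had means of 0.00267 to 0.318 CPM and at most 120 counts over all libraries together. They were Kcna7 and Kcna10 of the Kv1 family, Kcnq1, Kcnv2, Kcnn4, the inward rectifiers Kcnj1 and Kcnj15, the K2P genes Kcnk5, Kcnk7, Kcnk15, Kcnk16 and Kcnk18, and the auxiliary genes Kcne1, Kcne3, Kcne4, Kcnmb1 and Kcnmb3. None of the 92 was at 0 in every library.

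**Figure D1:**
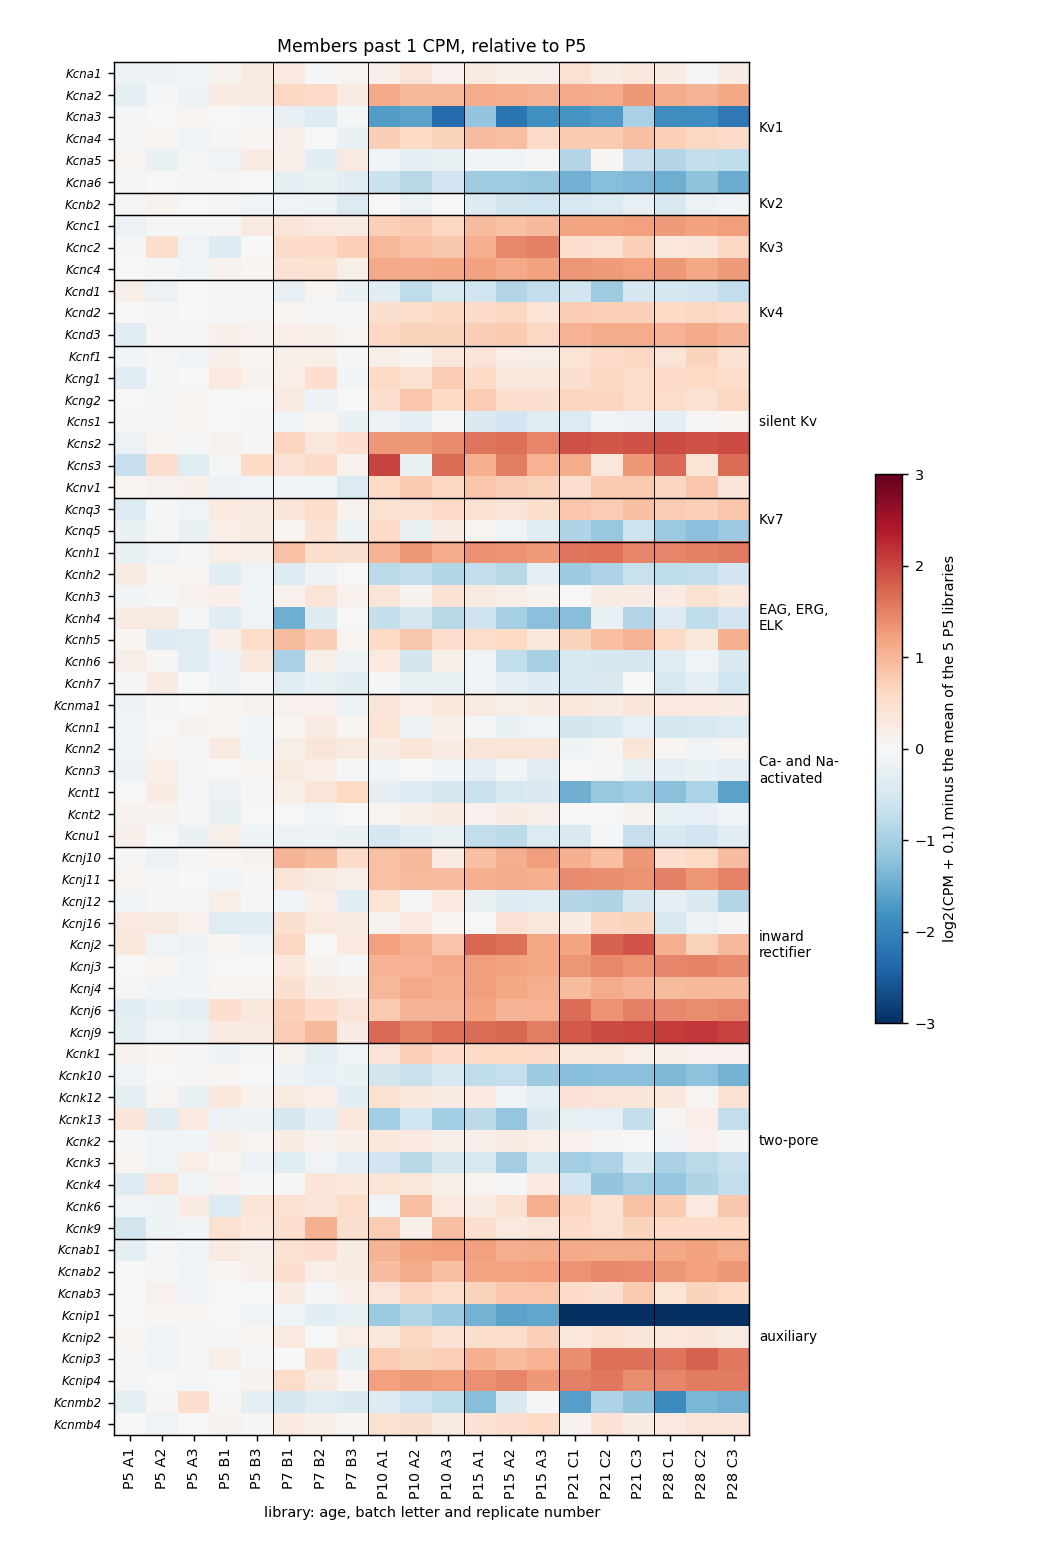
Level of members past the floor of 1 CPM, library by library for all 20, as log2(CPM + 0.1) minus the mean of the 5 P5 libraries; rows are grouped by channel class, columns run by age with the batch letter and replicate number, and colours saturate at the ends of the scale. Many rows turn red from P10 onwards, while Kcna3, Kcna6, Kcnk10, Kcnt1 and Kcnip1 turn blue.

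Most subunit genes moved between P5 and P15, ages that batch A holds both of, and more of them upwards than downwards. Of the 75 members tested, 41 were higher and 18 lower at P15 than at P5 (edgeR quasi-likelihood test, adjusted p under 0.05). Among all 15373 genes tested, 63.4% differed, 31.6% higher and 31.8% lower. The median log2 change of the members was 0.34, beside -0.02 for all genes. At least 2-fold higher were 22 members, beside 8.25% of all genes, and at least 2-fold lower were 8, beside 12.8% of all genes. With total counts in place of trimmed-mean (TMM) scaling, the median of all genes was -0.14 and 39.2% of the calls over all genes were higher, against 49.8% with TMM, while the members gave 39 higher and 20 lower.

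The age of the highest level was most often P21, followed by P5. Of the 67 past the floor, 15 had their highest mean at P5, then 4 (P7), 9 (P10), 9 (P15), 21 (P21) and 9 (P28), and 37 had their lowest mean at P5. The age means of 30 spanned at least 2-fold and those of 14 less than 1.5-fold. Over all ages together, 68 of the 75 tested members differed, beside 79.7% of all genes. The smallest spans belonged to Kcnk2 (1.19-fold) and to Kcnma1, the pore of the large-conductance calcium-activated channel (1.24-fold).

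**Figure D2:**
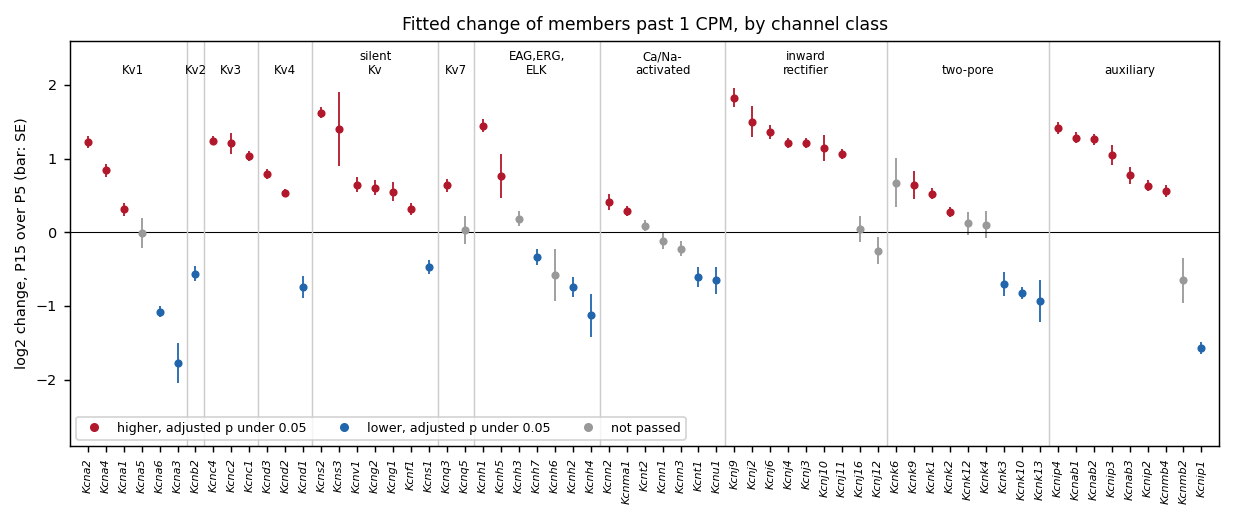
Fitted log2 change of members past 1 CPM, P15 over P5, with its SE, by channel class; red and blue mark members higher or lower at an adjusted p under 0.05 and grey those that did not pass. The 3 GIRK genes past the floor lie above 0, and the Kv1 and Kv4 classes hold members on either side.

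Kv1 channels, which set spike threshold and sit along axons, changed in make-up more than in sum. The summed level of the 8 Kv1 genes was 44.4 ± 2.32 CPM per kb at P15 (SD, n = 3) and 45.5 ± 2.31 at P5 (n = 5). Kcna2 had 142, 138 and 134 CPM at P15, against 54.7, 63.3 and 58.6 CPM among batch A's P5 libraries and 76.8 and 77.6 CPM in those of batch B. Its log2 change was 1.23 (SE 0.08, adjusted p = 3.67e-12), with every P15 library above every P5 library.

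Kcna6 had 62.0, 62.6 and 59.6 CPM at P15, against 126, 129 and 135 CPM in batch A and 133 and 131 CPM in batch B at P5. Here every P15 library lay below every P5 library, and the log2 change was -1.08 (SE 0.07, adjusted p = 3.34e-12). Kcna3 was scarcer, with 1.57, 0.722 and 0.947 CPM at P15, against 3.57 to 3.90 CPM at P5, and fell by 1.77 on the log2 scale (SE 0.27, adjusted p = 3.92e-06). Kcna4, the subunit that gives Kv1 channels fast inactivation, was higher at P15 (log2 change 0.84, SE 0.09), as was Kcna1 (0.31, SE 0.09), whose libraries overlapped between the ages. Kcna5 averaged 4.65 CPM at P15 and 4.83 CPM at P5 (adjusted p = 0.98) and was lower at P28 than at P5 (-0.76, SE 0.22).

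As a share of the Kv1 sum per kb, Kcna6 made up 23.3 ± 0.73% at P15 and 20.8 ± 2.57% at P28, against 48.4 ± 2.05% at P5. Kcna2 made up 26.1 ± 0.70% at P15 and 29.2 ± 1.27% at P28, against 12.2 ± 1.35% at P5. Kcna4 took 26.0 ± 2.14% at P15, against 14.5 ± 0.68% at P5. At P5 Kcna6 was thus the most abundant Kv1 gene by this measure, and at P28 Kcna2 was, followed by Kcna4.

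These genes lie in clusters whose members moved apart. In the mm10 assembly Kcna3 (chromosome 3, 107036169 to 107038070) and Kcna2 (chromosome 3, 107101146 to 107115005) stand 63.1 kb apart on the plus strand, and Kcna1 (chromosome 6, 126640397 to 126646384) and Kcna6 (chromosome 6, 126708329 to 126740674) stand 61.9 kb apart on the minus strand. The promoters of Kcna2, Kcna3 and Kcna6 are shown because the genes changed in opposite directions from neighbouring positions. Each is a 300-base RefSeq window of assembly GRCm38.p6 around the annotated start, printed 5′ to 3′ on the strand of the gene, at chr3:107101317-107101616 (plus), chr3:107035912-107036211 (plus) and chr6:126740625-126740924 (minus). Capitals mark matches to CAGCTG (an E-box), GGGCGG (a GC box) or TGACG (the core of a cAMP response element), which were searched on both strands together with CAGATG and TATAAA. The marked matches do not overlap one another.
Kcna2: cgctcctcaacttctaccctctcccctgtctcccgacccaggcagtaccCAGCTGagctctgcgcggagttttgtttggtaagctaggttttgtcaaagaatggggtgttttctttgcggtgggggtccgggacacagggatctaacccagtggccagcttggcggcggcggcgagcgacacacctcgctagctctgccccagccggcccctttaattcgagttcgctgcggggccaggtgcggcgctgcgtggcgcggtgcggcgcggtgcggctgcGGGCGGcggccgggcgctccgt
Kcna3: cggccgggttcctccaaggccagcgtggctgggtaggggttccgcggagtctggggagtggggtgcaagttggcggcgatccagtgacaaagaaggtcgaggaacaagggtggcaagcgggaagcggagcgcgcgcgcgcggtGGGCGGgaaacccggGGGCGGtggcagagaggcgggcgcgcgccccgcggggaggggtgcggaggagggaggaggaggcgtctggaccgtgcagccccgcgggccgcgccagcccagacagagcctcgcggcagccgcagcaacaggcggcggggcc
Kcna6: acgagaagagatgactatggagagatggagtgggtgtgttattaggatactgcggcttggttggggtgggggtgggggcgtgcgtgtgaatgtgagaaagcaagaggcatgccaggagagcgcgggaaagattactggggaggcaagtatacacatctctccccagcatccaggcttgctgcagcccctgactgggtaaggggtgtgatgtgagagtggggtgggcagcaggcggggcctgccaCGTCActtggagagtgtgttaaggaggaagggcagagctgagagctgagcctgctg
The Kcna2 window holds CAGCTG and GGGCGG, the Kcna3 window GGGCGG at 2 places, and the Kcna6 window TGACG on the opposite strand, read here as CGTCA. Of the 92 members, 67 had a promoter in the table, with 92 windows. CAGCTG was found in 25% of the members' windows and in 16.3% of all 32851, GGGCGG in 47.8% and 35.7%, TGACG in 18.5% and 20.8%, CAGATG in 20.7% and 17.2%, and TATAAA in 5.43% and 13.6%. These matches describe letters in the windows and show no binding.

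Kv2 and Kv3 channels repolarize the membrane during repetitive firing. The Kv2 gene Kcnb2 was lower at P15 (log2 change -0.56, SE 0.10), with 19.1, 17.2 and 16.5 CPM against 23.5 to 27.1 CPM at P5. At P28 Kcnb2 had 18.1, 22.3 and 23.8 CPM and was still lower than at P5 (-0.28, SE 0.10), with overlapping libraries.

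Of the Kv3 genes, Kcnc4 had 156, 150 and 157 CPM at P15, against 64.2 to 66.9 CPM in batch A and 72.6 and 70.7 CPM in batch B at P5 (log2 change 1.24, SE 0.06). Kcnc1 had 133, 127 and 135 CPM at P15, against 60.7 to 66.0 CPM in batch A and 70.0 and 82.9 CPM in batch B at P5 (1.04, SE 0.06). For both genes every P15 library lay above every P5 library.

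Kcnc2 followed another course. It had 8.17 to 15.4 CPM at P5, then 15.9 to 17.6 (P7), 18.8 to 21.4 (P10), 22.8 to 30.6 (P15), 14.7 to 17.5 (P21) and 13.4 to 16.4 (P28). P15 was its highest age, with a log2 change of 1.21 against P5 (SE 0.14) and of -0.80 for P21 against P15 (SE 0.14, adjusted p = 0.000178). Kcnc2 is also known from fast-spiking interneurons. Of 13 interneuron markers tested, 8 were higher and 4 lower at P15 than at P5, and at P21 2 were higher and 7 lower than at P15. The summed level of the list was 449 to 480 CPM at P15, against 274 to 307 CPM at P5, and 448 to 475 CPM at P21. Much of this sum was Gad1 and Cck, with means of 157.3 and 127.3 CPM at P15 and 195.4 and 152.5 CPM at P21. The median log2 change of the 13 was 0.955 for P15 against P5 and -0.728 for P21 against P15. None of the 14 listed markers was at 0 in every library of an age, and their part in the course of Kcnc2 was not tested.

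Kv4 channels carry the A-type current of dendrites. Kcnd2, the main Kv4 gene here with 71.2 to 75.3% of the Kv4 sum per kb at every age, rose to 200, 208 and 180 CPM at P15, against 129 to 138 CPM at P5 (log2 change 0.53, SE 0.06). Kcnd3 rose by 0.79 (SE 0.07) at P15 and by 1.15 (SE 0.07) at P28, where it had 134 to 144 CPM, against 52.4 to 73.5 CPM at P5. Kcnd1 fell by 0.75 (SE 0.15), with 8.64, 7.07 and 7.89 CPM at P15, against 11.7 to 14.8 CPM at P5.

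Silent Kv subunits form no channel alone and modify Kv2 channels. Of the 9 tested, 8 were higher and 1 lower at P15 than at P5, beside 31.6% of all genes higher and 31.8% lower. Kcns2 had 54.3, 56.0 and 49.7 CPM at P15 and 69.3, 67.3 and 69.8 CPM at P28, against 15.9 to 18.6 CPM in batch A and 19.4 and 18.3 CPM in batch B at P5. Its log2 change was 1.62 at P15 (SE 0.08, adjusted p = 4.79e-15) and 1.99 at P28 (SE 0.08, adjusted p = 5.14e-17). Its mean climbed at each age in turn, and no library of P7 or later overlapped one of P5. Kcng1, Kcng2, Kcnf1 and Kcnv1 rose by 0.32 to 0.65, and Kcns3, at a few CPM or less, by 1.40 (SE 0.51). Kcng3 had 0.681, 0.568 and 0.684 CPM at P15 (batch A), against 0.115 to 0.291 CPM in batch A and 1.00 and 0.494 CPM in batch B at P5. Its fitted change of 1.57 (SE 0.48) is the one within batch A, and the P15 libraries overlap those of batch B at P5. Kcng4 had 1.05, 1.91 and 1.79 CPM at P15, against 0 to 0.197 CPM at P5, of which the lower values lie near or under the level of 3 counts. Kcns1 was the member that fell, by 0.47 (SE 0.10).

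Kv7 channels carry the M-current, which restrains repetitive firing. The Kv7 gene Kcnq3 had 162, 153 and 169 CPM at P15, against 88.4, 114 and 108 CPM in batch A and 144 and 142 CPM in batch B at P5 (log2 change 0.64, SE 0.09). The Kcnq3 levels of the batch B libraries at P5 lay closer to those of P15, and the batches differed for this gene (log2 change of B against A 0.47, SE 0.10). Kcnq5 had 28.9, 25.2 and 21.5 CPM at P15 and 23.7 to 33.1 CPM at P5 (0.03, SE 0.19), and 12.6, 11.4 and 12.9 CPM at P28 (-1.003 against P5, SE 0.20).

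Among the EAG, ERG and ELK genes (Kcnh), 2 of 8 were higher and 4 lower at P15, beside 31.6% of all genes higher and 31.8% lower. Kcnh1, the EAG channel gene, had 82.3, 80.7 and 76.9 CPM at P15, against 27.6, 29.6 and 30.8 CPM in batch A and 36.4 and 36.1 CPM in batch B at P5 (log2 change 1.45, SE 0.09, adjusted p = 1.33e-12). Kcnh2, an ERG channel gene, had 8.38, 7.84 and 11.5 CPM, against 11.2 to 16.9 CPM at P5 (-0.74, SE 0.14), with overlapping libraries. Kcnh3, the most abundant of this class, averaged 109 CPM at P15 and 96.4 CPM at P5 (adjusted p = 0.112), and was higher at P28 than at P5 (0.35, SE 0.10). Kcnh8, below the floor, fell to 0.21 to 0.413 CPM at P15, against 0.748 to 1.51 CPM at P5.

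Calcium- and sodium-activated channels link potassium efflux to calcium or sodium entry. Their summed level was 28.8 ± 0.28 CPM per kb at P15 and 26.0 ± 0.10 at P28 (SD, n = 3 each), against 28.1 ± 0.90 at P5 (n = 5). Kcnma1 had 213, 198 and 206 CPM at P15, against 156 to 189 CPM at P5 (log2 change 0.29, SE 0.07). Of the small-conductance genes, Kcnn2 was higher at P15 (0.41, SE 0.11), while Kcnn1 (adjusted p = 0.353) and Kcnn3 (adjusted p = 0.0535) did not pass.

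The sodium-activated channel gene Kcnt1 had its highest mean at P7. It had 24.8 to 33.2 CPM at P5, then 31.6 to 42.8 (P7), 19.9 to 23.6 (P10), 17.7 to 20.8 (P15), 10.1 to 13.6 (P21) and 9.22 to 14.6 (P28). The log2 change was 0.50 for P7 against P5 (SE 0.15, adjusted p = 0.0326), with overlapping libraries, and -1.32 for P28 against P5 (SE 0.14). Kcnu1, which encodes a channel known from sperm, was listed at 3.20 to 4.16 CPM at P15 and at 4.89 to 6.31 CPM at P5 (-0.65, SE 0.18).

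The inward rectifier class more than doubled in summed level, with 222.5 ± 9.24 CPM per kb at P15 and 229.5 ± 1.33 at P28 (SD, n = 3 each), against 97.8 ± 5.06 at P5 (n = 5). Of the 13 genes tested, 7 were higher and 1 lower at P15, beside 31.6% of all genes higher and 31.8% lower. The GIRK genes Kcnj3, Kcnj6 and Kcnj9 all rose. Kcnj9 had 37.0, 41.1 and 39.9 (batch A) and 53.9 and 52.9 CPM (batch B) at P5, then 76.0, 87.2 and 52.5 (P7), 145, 128 and 139 (P10), 142, 147 and 129 (P15), 159, 173 and 178 (P21) and 190, 194 and 182 (P28). Its log2 change, 1.82 at P15 (SE 0.13, adjusted p = 1.92e-09) and 2.26 at P28 (SE 0.13, adjusted p = 7.59e-11), was the highest of any member with at least 5 CPM in both comparisons.

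The promoter of Kcnj9 is shown as that of the member with the largest rise at P15 among those of at least 5 CPM, at chr1:172329273-172329572 on the minus strand of GRCm38.p6, again a 300-base RefSeq window. The capitals mark TATAAA, found in 5.43% of the members' windows. None of the other motifs was found in this window.
Kcnj9: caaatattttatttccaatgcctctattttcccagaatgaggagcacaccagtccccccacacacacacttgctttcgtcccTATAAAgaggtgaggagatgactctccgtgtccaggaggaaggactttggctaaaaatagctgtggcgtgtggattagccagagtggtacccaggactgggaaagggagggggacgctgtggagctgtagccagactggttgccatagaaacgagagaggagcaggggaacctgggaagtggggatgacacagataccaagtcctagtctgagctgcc

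Kcnj3 had 230, 221 and 215 CPM at P15 and 268, 270 and 256 CPM at P28, against 91.4 to 100.1 CPM at P5, and the 2 batches overlapped at that age. Its log2 change was 1.21 at P15 (SE 0.07) and 1.46 at P28 (SE 0.07). Kcnj6 had 34.7, 30.9 and 31.6 CPM at P15 and 41.6, 40.1 and 41.6 CPM at P28, against 12.1, 13.1 and 12.6 CPM in batch A and 21.7 and 19.1 CPM in batch B at P5. The fitted changes of Kcnj6, 1.36 at P15 (SE 0.10) and 1.70 at P28 (SE 0.10), refer to batch A, and batch B stood above A by 0.70 on the log2 scale (SE 0.11, adjusted p = 0.000237).

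Per kb, Kcnj3 and Kcnj9 together made up most of the GIRK sum at every age. Kcnj9 held 40.9 ± 1.39% at P15 and 43.9 ± 0.25% at P28, against 33.5 ± 3.24% at P5. Kcnj3 held 53.7 ± 1.09% at P15 and 50.6 ± 0.06% at P28, against 59.5 ± 4.42% at P5. Kcnj5, a GIRK subunit of the heart, held at most 0.679% of the sum in any library.

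The strong inward rectifier genes Kcnj4 and Kcnj2 were also higher at P15. Kcnj4 had 256, 238 and 229 CPM, against 99.9 to 114 CPM at P5 (log2 change 1.21, SE 0.07). Kcnj2 had 26.0, 24.9 and 17.8 CPM, against 7.05 to 9.84 CPM at P5 (1.502, SE 0.21), and at P28 16.7, 12.8 and 15.5 CPM. Kcnj11, the pore of the ATP-sensitive channel, had 59.7, 61.8 and 59.0 CPM at P15 and 81.4, 70.7 and 79.5 CPM at P28, against 26.9 to 30.1 CPM at P5 (1.07, SE 0.07, at P15 and 1.43, SE 0.07, at P28). Its partner gene Abcc8, for the sulfonylurea receptor, averaged 41.5 CPM at P15 and 28.03 CPM at P5 (0.55, SE 0.10).

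Several inward rectifiers are known from cells other than neurons. Kcnj10, the potassium-buffering channel of astrocytes and oligodendrocytes, had 16.4 to 20.2 CPM at P5, then 27.9 to 38.0 (P7), 22.3 to 36.8 (P10), 35.1 to 44.6 (P15), 35.2 to 46.3 (P21) and 26.6 to 35.8 (P28). The summed level of 12 astrocyte markers was 1420 to 1740 CPM at P15, against 747 to 808 CPM at P5, with 6 higher and 2 lower, and none was at 0 throughout any age. Slc1a2 alone averaged 999.5 CPM at P15 and 338.9 CPM at P5, and the median log2 change of the 12 was 0.25. That of 16 oligodendrocyte markers was 1100 to 1900 CPM at P15, against 193 to 273 CPM at P5, with 11 higher and 4 lower. The part of these markers' cells in the levels of Kcnj10 was not tested. Kcnj16, with which Kcnj10 pairs in glia, averaged 4.05 CPM at P15 and 3.40 CPM at P5 (adjusted p = 0.847).

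Kcnj8, the pore of the ATP-sensitive channel of pericytes and vascular muscle, fell to 0.367, 0.155 and 0.631 CPM at P15, against 1.00 to 1.67 CPM at P5 (log2 change -2.06, SE 0.46). Abcc9, its sulfonylurea receptor partner, fell by 2.10 (SE 0.34). The summed level of 12 endothelial and mural markers, Abcc9 among them, was 46.6 to 64.4 CPM at P15, against 102 to 178 CPM at P5, with 11 lower and 0 higher, and none was at 0 throughout any age. Kcne2 and Kcnj13, genes of the choroid plexus, both lay below the floor, and Kcne2 fell to 0.262, 0.31 and 1.26 CPM at P15, against 0.764 to 2.45 CPM at P5. A sum of 6 choroid plexus markers, listed after the data had been seen, was 73.7 to 210 CPM at P15, against 156 to 353 CPM at P5. The part of vessel or choroid cells in these values was not tested.

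**Figure D3:**
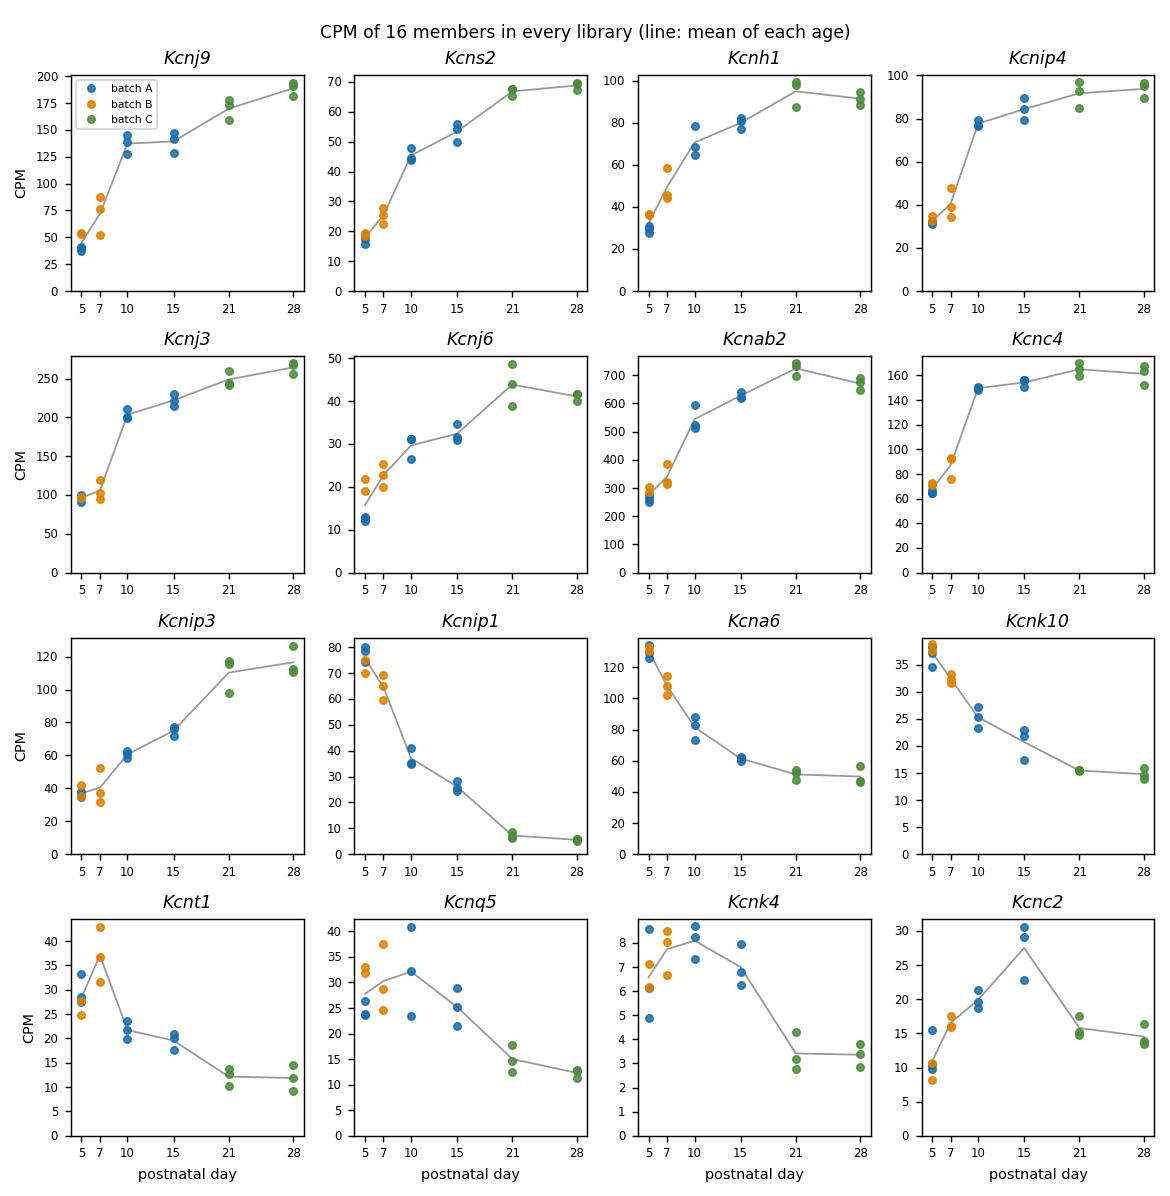
CPM of members from the named set in each library by postnatal day, with the mean of each age as a line and the batch as colour; both axes are linear and each vertical axis starts at 0. Kcnj9, Kcns2, Kcnj3 and Kcnc4 climb most between P7 and P10, Kcnip1, Kcna6 and Kcnk10 fall at each age, and Kcnc2 peaks at P15. The step from P7 to P10 crosses from batch B to batch A, and the values are not adjusted for batch.

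K2P channels carry background current. Kcnk1, the most abundant of them, had 200, 201 and 195 CPM at P15, against 119 to 141 CPM at P5 (log2 change 0.52, SE 0.08), and 149, 144 and 145 CPM at P28 (0.08 against P5, SE 0.08, adjusted p = 0.347). The class sum was 112.6 ± 1.96 CPM per kb at P15 and 88.3 ± 0.68 at P28 (SD, n = 3 each), against 84.1 ± 1.84 at P5 (n = 5). Kcnk1 alone held 88.7, 65.2 and 59.0 CPM per kb of it at P15, P28 and P5, so the sum mostly reflects this gene. Kcnk10, a mechanically and lipid-gated channel gene, had 21.9, 22.9 and 17.5 CPM at P15 and 14.6, 15.9 and 13.9 CPM at P28, against 34.5 to 38.8 CPM at P5 (-0.82, SE 0.09, at P15 and -1.31, SE 0.09, at P28). No library of either age overlapped one of P5.

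Of the acid-sensitive channel genes, Kcnk3 had 7.86, 5.26 and 7.74 CPM at P15, against 9.72 to 12.5 CPM at P5 (-0.70, SE 0.16), while Kcnk9 averaged 51.7 CPM at P15 (batch A), against 33.2 CPM in batch A and 51.6 CPM in batch B at P5. Its fitted change of 0.64 (SE 0.19) is the one within batch A, and the P15 libraries overlap those of batch B at P5. Kcnk4, another mechanically gated channel gene, had 6.81, 6.24 and 7.95 CPM at P15 and 4.89 to 8.56 CPM at P5 (0.10, SE 0.18) but 2.85, 3.41 and 3.83 CPM at P28 (-0.96 against P5, SE 0.20). Kcnk13, known from microglia, fell to 1.34 to 2.32 CPM at P15, against 2.49 to 4.09 CPM at P5. The sum of 10 microglial markers was 33.3 to 51.4 CPM at P15 and 24.5 to 31.2 CPM at P5, with 5 higher and 0 lower, and its part in Kcnk13 was not tested.

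The auxiliary subunits held large changes in both directions. Of the 10 tested, 7 were higher and 2 lower at P15, beside 31.6% of all genes higher and 31.8% lower. Kcnab2, whose product binds Kv1 channels and is the most abundant member per kb, had 622, 621 and 639 CPM at P15, against 250 to 273 CPM in batch A and 284 and 302 CPM in batch B at P5 (log2 change 1.26, SE 0.07). Kcnab1 had 177, 161 and 164 CPM, against 62.3 to 72.4 CPM in batch A and 89.2 and 83.8 CPM in batch B (1.29, SE 0.07). Both were thus well above every P5 library at P15.

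The KChIP genes (Kcnip1 to Kcnip4) encode calcium-binding partners of Kv4 channels. Kcnip1 had 69.9 to 79.9 CPM at P5, then 59.8 to 69.2 (P7), 34.9 to 41.1 (P10), 24.6 to 28.2 (P15), 6.15 to 8.48 (P21) and 5.24 to 5.74 (P28). The fall was the largest of any member with at least 5 CPM, with a log2 change of -1.57 at P15 (SE 0.08, adjusted p = 4.12e-14) and -3.80 at P28 (SE 0.10, adjusted p = 8.8e-20).

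Kcnip4 had 84.3, 89.4 and 79.5 CPM at P15, against 31.0 to 34.7 CPM at P5 (1.41, SE 0.08). Kcnip3 had 77.2, 71.9 and 75.8 CPM at P15 and 112, 127 and 110 CPM at P28, against 34.8 to 41.8 CPM at P5 (1.05, SE 0.14, at P15 and 1.69, SE 0.13, at P28). Kcnip2, the most abundant, had 256, 260 and 288 CPM at P15, against 165 to 183 CPM at P5 (0.63, SE 0.07).

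In the KChIP sum per kb, Kcnip1 made up 0.73 ± 0.06% at P28, against 14.8 ± 1.08% at P5. Kcnip3 made up 26.6 ± 1.04% at P28, against 12.7 ± 0.77% at P5, and Kcnip4 20.3 to 22.0%, against 10.2 to 11.5%. Kcnip2 held 51.6 ± 1.12% at P28 and 61.6 ± 1.23% at P5 (SD, n = 3 at P28 and 5 at P5). Markers of immature neurons fell with Kcnip1: their sum was 846 to 853 CPM at P28, against 2830 to 3320 CPM at P5, with 8 of 9 lower and 1 higher. The sum of 8 Cajal-Retzius markers was 19.3 to 40.7 CPM at P28, against 144 to 188 CPM at P5, with 8 lower, and 1 of them was at 0 in every P21 library. The part of these cells in the level of Kcnip1 was not tested.

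**Figure D4:**
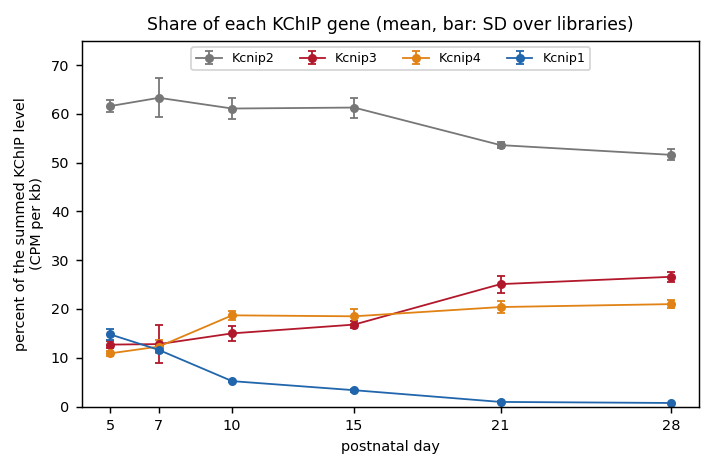
Share of each KChIP gene in the sum of all 4 (CPM per kb of exon), by postnatal day, as mean and SD over the libraries of an age (n = 5 at P5 and 3 at each later age). Kcnip1 drops to 0.73% at P28, and Kcnip3 reaches 26.6%, above Kcnip4.

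**Figure D5:**
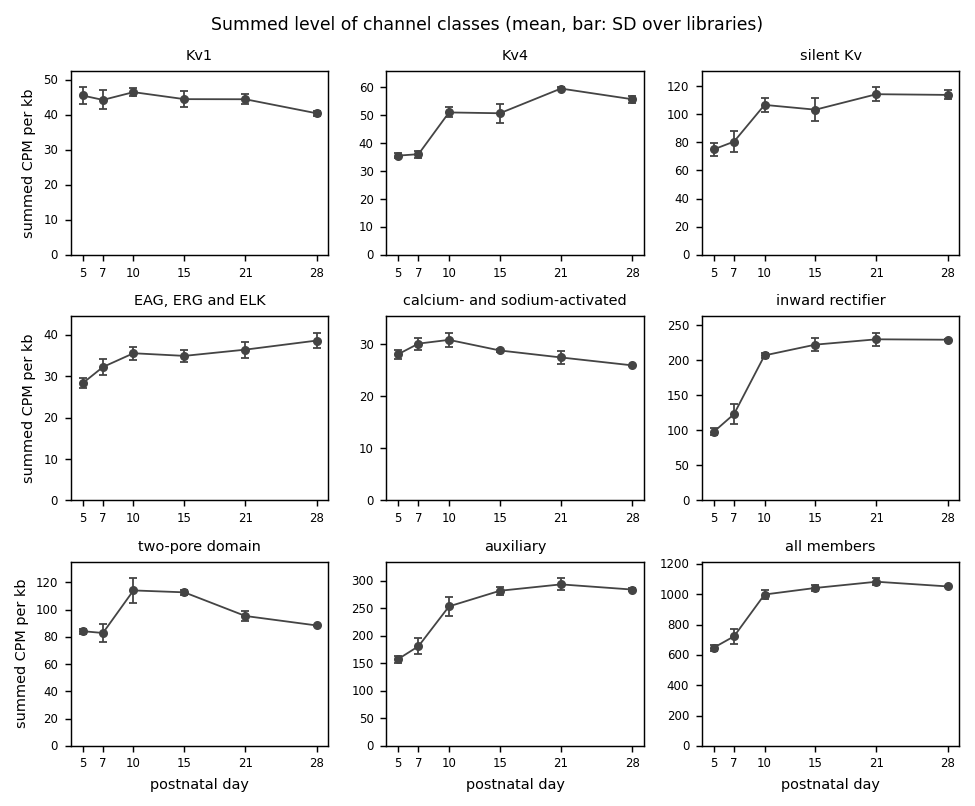
Summed level of channel classes and of all members by postnatal day, in CPM per kb of exon, as mean and SD over the libraries of an age; each vertical axis starts at 0. The inward rectifier sum reaches 222.5 at P15, while the Kv1 and the calcium- and sodium-activated sums stay near their P5 level.

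The first step was small. At P7, 9 of the 75 members were higher than at P5 and 1 was lower, beside 11% of all genes that differed, 6.15% higher and 4.89% lower. Among the higher ones were Kcnc2 (log2 change 0.81, SE 0.17), Kcnj10 (0.77, SE 0.20), Kcnj16 (0.72, SE 0.20), Kcnt1 (0.50, SE 0.15), Kcnh1 (0.45, SE 0.10), Kcns2 (0.43, SE 0.09), Kcnj11 (0.30, SE 0.08) and Kcnc4 (0.28, SE 0.07). Kcnj16 had 4.73, 4.08 and 4.03 CPM at P7, against 2.58 and 2.62 CPM in batch B and 3.67 to 4.09 CPM in batch A at P5. Its fitted change is thus the one within batch B, and the P7 libraries overlap those of batch A at P5. Kcna6 was lower (-0.28, SE 0.08). The summed astrocyte markers stood at 1060 to 1300 CPM at P7, against 747 to 808 CPM at P5, with 5 of 12 higher, and their part in Kcnj10 and Kcnj16 was not tested.

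The baseline of this step is in effect the 2 batch B libraries at P5. The members' counts became 2 higher and 0 lower with batch B alone, 5 and 4 with total counts as the scaling, and 19 and 5 with no batch term. Leaving out 1 library gave 1 higher without replicate 1 and 5 without replicate 3 of batch B at P5, 5 without P7 replicate 1 and 14 without P7 replicate 3, and Kcna6 did not pass without any of these 4. With total counts the median of all genes was -0.10 and 18% of all calls were higher, against 55.7% with TMM.

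At P10, 42 members were higher and 15 lower than at P5, beside 61.4% of all genes that differed, 30.8% higher and 30.6% lower. The median log2 change was 0.38 for the members and -0.02 for all genes. With total counts, the members gave 37 higher and 19 lower, the median of all genes was -0.15, and 37.6% of all calls were higher, against 50.1% with TMM. P10 and P15 share the P5 libraries as their baseline. Kcnj9 (1.80, SE 0.13), Kcns2 (1.39, SE 0.08), Kcnip4 (1.29, SE 0.08), Kcnab1 (1.28, SE 0.07) and Kcnh1 (1.27, SE 0.09) had the largest rises among members of at least 5 CPM.

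Between P10 and P15 few members differed. Kcnc1 was higher at P15 (log2 change 0.22, SE 0.06), and Kcnip1 (-0.51, SE 0.09), Kcnb2 (-0.46, SE 0.10) and Kcna6 (-0.41, SE 0.07) were lower, beside 4.36% of all genes, 1.84% higher and 2.52% lower. The call on Kcnc1 was lost without P10 replicate 1 or 3 or any single P15 replicate, and 7 members were lower without P10 replicate 2.

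At P21, 15 members were higher and 11 lower than at P15, beside 28.8% of all genes, 14% higher and 14.8% lower. Among called members, the highest changes were those of Kcnip3 (log2 change 0.56, SE 0.13), Kcnj6 (0.44, SE 0.09), Kcnk12 (0.41, SE 0.15) and Kcnq3 (0.38, SE 0.09), and among the lowest were those of Kcnip1 (-1.85, SE 0.10), Kcnk4 (-1.04, SE 0.20) and Kcnc2 (-0.80, SE 0.14). Without P15 replicate 3, 9 members were higher and Kcnk12 did not pass (log2 change 0.29, adjusted p = 0.226). The step coincides with the change to batch C, and age and batch cannot be told apart.

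Between P21 and P28, both in batch C, no member passed with edgeR, beside 0.254% of all genes, 0.065% higher and 0.189% lower, of whose calls 25.6% were higher with TMM and 51.5% with total counts. An unadjusted p under 0.05 with edgeR was reached by 0 members higher and 8 lower at P28, beside 5.97% of all genes higher and 6.77% lower. DESeq2 called 0 members higher and 2 lower of the 64 to which it gave an adjusted p, beside 0.418% of all genes higher and 0.883% lower. The smallest p was that of Kcnj16, with 2.36, 2.94 and 3.19 CPM at P28, against 3.94, 5.24 and 5.36 CPM at P21 (log2 change -0.78, SE 0.18, adjusted p = 0.0658 with edgeR). The summed astrocyte markers were 1070 to 1320 CPM at P28 and 1590 to 1900 CPM at P21, and their part in Kcnj16 was not tested.

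Over the whole span, 39 members were higher and 25 lower at P28 than at P5, beside 71.6% of all genes, 35.2% higher and 36.4% lower. At least 2-fold higher were 20 members, beside 10.4% of all genes, and at least 2-fold lower were 11, beside 18.7%. The median log2 change was 0.35 for the members and -0.01 for all genes (-0.14 with total counts). By class, 8 of 9 silent Kv genes were higher and 0 lower, 7 of 13 inward rectifiers higher and 3 lower, and 7 of 10 auxiliary genes higher and 3 lower. Of 7 calcium- and sodium-activated genes 1 was higher and 5 lower, and of 8 Kcnh genes 3 were higher and 4 lower. This comparison crosses from batches A and B to batch C.

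The P5 libraries of the 2 batches differed for 8 members, all higher in batch B than in batch A, beside 10.1% of all genes, 6.65% higher and 3.42% lower. Among them were Kcna2 (log2 change 0.39, SE 0.09), Kcnab1 (0.34, SE 0.08), Kcnc1 (0.26, SE 0.07), Kcng3 (1.79, SE 0.50), Kcnj6 (0.70, SE 0.11) and Kcnq3 (0.47, SE 0.10). Those named were also higher at P15 than at P5, but both comparisons rest on the batch A libraries at P5 and are not independent. With total counts as the scaling, 5 were higher and 3 lower in batch B, and leaving out a library gave 3 higher without batch A replicate 1, 5 without batch B replicate 1 and 4 without batch B replicate 3.

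Genes for proteins that bind these channels, from a list of 30, went partly the same way. Of the 27 tested, 15 were higher and 6 lower at P15 than at P5, beside 31.6% of all genes higher and 31.8% lower. The median log2 change of the 27 was 0.35, beside -0.02 for all genes. Dpp6, a Kv4 partner, averaged 597 CPM at P15 and 426 CPM at P5 (0.59, SE 0.06), and Amigo1, a Kv2 partner, 124 CPM at P15 and 65.2 CPM at P5 (0.99, SE 0.07). Rgs7bp, which anchors a regulator of GIRK gating, rose by 1.67 (SE 0.07), and Lgi1 and Lgi3, secreted ligands of the Kv1-associated ADAM proteins, by 1.36 (SE 0.08) and 1.78 (SE 0.09). Cntn2 and Cntnap2, which cluster Kv1 channels beside nodes of Ranvier, averaged 25.6 and 59.3 CPM at P15, against 121 and 184 CPM at P5, and fell by 2.38 (SE 0.14) and 1.76 (SE 0.12). Ank3, the axon initial segment scaffold, fell by 0.31 (SE 0.08) at P15, but at P7 it was higher than at P5 (0.65, SE 0.09). It averaged 1373 CPM at P7, against 668 CPM over the P5 libraries of both batches, which ran from 513.7 to 932 CPM. The fitted changes of Ank3 are in effect those within batch A at P15 and within batch B at P7.

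Exons shared with other genes limit some values, since the strand setting of the counting is not given in the sources used here. Of the members past the floor, 13 share more than 5% of their exon bases with another annotated gene. The highest shares were 39.6% for Kcna6 with Gm26673, 31.5% for Kcnmb4 with Kcnmb4os1 and Kcnmb4os2, and 31.1% for Kcnj3 with Gm26794, all on the opposite strand. Gm26673 was listed at 0 to 0.986 CPM. Reads of Kcnj3 or Kcnmb4 and of their antisense partners cannot be told apart without the strand setting.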

How the data were processed

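The authors deposited raw counts per gene for 20 RiboTag libraries (per the labels, poly-A RNA in a stranded kit). Per the submitters' processing notes, STAR 2.7.5b, SAMtools 1.10, featureCounts and mm10 were used; the annotation, strand setting and multimapper handling are not stated in the notes or labels. Genes were tested with edgeR 4.0.16 (R 4.3.3; quasi-likelihood, robust, TMM factors, filterByExpr by age) in 1 fit of 6 ages plus a term for batch B, on 15373 genes, with 13 residual degrees of freedom and Benjamini-Hochberg adjusted p under 0.05. Batch C had no term of its own. P10 and P15 are thus compared in effect with the batch A libraries at P5 and P7 with those of batch B. A call at 2-fold needs the adjusted p as well. CPM are counts over TMM-scaled totals, and the floor of 1 CPM uses unscaled totals. Levels per kb use GENCODE vM21 exon lengths, which matched all 92 members. The script was tested on simulated data.

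Alternatives were DESeq2 size factors, total counts, other filters, the DESeq2 1.42.0 test, limma-voom (limma 3.58.1), no batch term, single batches, a replicate block and leaving out each library. Values in every library are given for members of at least 5 CPM at some age with the 10 largest changes each way (P15 or P28 against P5), the 4 largest in the steps between ages, or the 6 highest levels per kb; a few members are counted but not reported here by name or in the figures. Members and lists were chosen with earlier results of these data known, and the choroid plexus list after these counts had been seen. Replicates of an age and batch differed by more than sampling noise (chi-square 3.7 to 21.2 per degree of freedom). Pairs of a batch A and a batch B library at P5 gave 27.4 to 40.7. Replicate numbers were not treated as pairs across ages in the main fit. Same-numbered libraries had correlations of deviations of -0.36 to 0.317, with 14 of 55 over 0.1. Differently numbered libraries were not compared, so these values cannot exclude pairing.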

Additional observations from a re-analysis of the deposited data

How the results depend on the processing

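The 35 named members gave 245 fold changes and 7245 alternatives of them. Of these, 7089 kept their side of the threshold, 93 no longer passed and 63 newly passed. A change of sign with a pass in either fit occurred in 0. Where neither fit passed, a change of sign was not counted as a reversal and falls within the 7089. The number of members past the floor was 67 whichever library was left out.

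For P7 against P5 (9 higher, 1 lower), total counts gave 5 higher and 4 lower, no batch term 19 and 5, and batch B alone 2 and 0; DESeq2 and limma-voom each gave 2 lower. For P15 against P10 (1 higher), no filter, limma-voom and batch A alone each gave 2 higher, DESeq2 4 and no batch term 0. For P28 against P21, DESeq2 gave 2 lower. For batch B against batch A at P5 (8 higher, 0 lower), total counts gave 5 and 3. The cause was not tested.

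With the replicate number as a replicate block, P15 against P10 gave 0 higher; the other counts of calls stayed within 1.5 times. Whether the numbers pair the libraries is not known.

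Leaving out each library gave 1 to 14 higher and 0 to 2 lower for P7 against P5, 40 to 43 and 13 to 16 for P10 against P5, 39 to 41 and 17 to 20 for P15 against P5, 0 to 3 and 2 to 7 for P15 against P10, 9 to 17 and 8 to 12 for P21 against P15, 0 to 0 and 0 to 2 for P28 against P21, 37 to 40 and 20 to 26 for P28 against P5, and 3 to 10 and 0 to 0 for batch B against batch A; 63 to 69 members differed between any ages. Members near 1 CPM rest on few counts, and changes there carry the widest SEs.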

Other observations

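Kcnj9 and Kcnj10, 11.9 kb apart on chromosome 1, were both higher at P15 than at P5 (log2 change 1.82 and 1.15), although the first is a neuronal GIRK gene and the second is best known from glia. Kcnj16 and Kcnj2, 38.2 kb apart on chromosome 11, gave 0.04 (adjusted p = 0.847, edgeR) and 1.502.

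Kcnj2 had 16.7, 12.8 and 15.5 CPM at P28, against 17.9, 27.2 and 29.2 CPM at P21. The log2 change of -0.73 (SE 0.20) had an adjusted p of 0.139 with edgeR and of 0.0223 with DESeq2; over all alternatives it ran from 0.0223 to 0.455, and it was 0.0445 with edgeR without P21 replicate 1.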
